A study of Mus musculus with 6 samples.

Results

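Cecr2 and Baz2b encode bromodomain subunits of ISWI-type chromatin remodelling complexes, and both were more abundant in murine brainstem gliomas with the H3.3K27M histone mutation than in gliomas without it. They were picked by gene name from the authors' deposited table, where they are 2 of 223 genes. That table lists only genes that differed between these same tumours, so the difference in both genes is what placed them here. It is described below and not tested again.

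RNA was sequenced from 6 brainstem gliomas. The C57BL/6 mice were p53 floxed and carried Nestin tv-a, a transgene in which the nestin promoter places the receptor of an avian retrovirus on progenitor cells so that viruses can carry genes into them. Tumours of the H3.3K27M group (n = 3) combined PDGF-B, a driver of glioma growth, with loss of p53 and H3.3K27M, a lysine-to-methionine change in the histone variant H3.3. Tumours without H3.3K27M (n = 3) shared PDGF-B and p53 loss. Their titles read H3.3WT, which does not say whether wild-type H3.3 was introduced into them. The labels give no age of the mice. The series' design text calls the tumours independent. Titles of the H3.3K27M tumours begin with 12 and the others with 11. The labels do not explain these numbers, and whatever they mark cannot be told apart from the mutation. The titles of 2 of the H3.3K27M tumours, replicates 1 and 2, continue with 623 and that of replicate 3 with 703.

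ISWI remodellers use ATP to slide and space nucleosomes. Each complex pairs an ATPase, SMARCA1 (SNF2L) or SMARCA5 (SNF2H), with a large partner that helps direct it to chromatin, and several of these partners carry a bromodomain, a fold that binds acetylated lysine on histones and other proteins. CECR2 is the partner of SMARCA1 in the CERF complex and also binds SMARCA5, and mice that lack Cecr2 can fail to close the neural tube. BAZ2B also forms complexes with the ISWI ATPases and is the paralogue of BAZ2A, the subunit of the nucleolar remodelling complex NoRC, which silences ribosomal RNA genes. H3.3K27M inhibits PRC2, the Polycomb methyltransferase that acts on the same lysine of histone H3.

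The coding sequences of Cecr2 and Baz2b hold no long identical run with each other or with Baz2a, the paralogue of Baz2b on chromosome 10. Cecr2 (ENSMUSG00000071226) lies on chromosome 6 and Baz2b (ENSMUSG00000026987) on chromosome 2. In GENCODE M21 their longest coding sequences have 4359 and 6369 bases. The longest identical run between these coding sequences, on the coding strand, is 12 bases, between Baz2b and Baz2a it is 15 bases, and between Cecr2 and Baz2a 13 bases. The first and second of these runs are shown in capitals, with 12 bases on either side, to show how short the shared stretches between these coding sequences are:
Cecr2 from coding base 551: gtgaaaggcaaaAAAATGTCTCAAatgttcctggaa
Baz2b from coding base 1409: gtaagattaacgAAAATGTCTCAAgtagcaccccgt
Baz2b from coding base 655: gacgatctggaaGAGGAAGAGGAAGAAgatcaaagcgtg
Baz2a from coding base 3130: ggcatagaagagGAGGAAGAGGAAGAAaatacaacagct
Of all 50-base stretches in the annotated transcripts, 11 of 17313 for Cecr2 (0.0635%) and 227 of 17770 for Baz2b (1.28%) also occur in a transcript of another gene on either strand. The noncoding gene Gm13620 overlaps 238 exon bases of Baz2b (1.35% of them) on the opposite strand, and as nothing here states whether counting used strand, reads there cannot be told apart. No other annotated gene overlaps an exon of Cecr2 or Baz2b.

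Cecr2, the bromodomain partner of SMARCA1, had 124, 125 and 122 normalized counts in the H3.3K27M tumours (replicates 1, 2 and 3), against 22.1, 28.3 and 28.4 in replicates 1, 2 and 3 without H3.3K27M. Normalized counts are read counts divided by a size factor for each tumour. The lowest H3.3K27M tumour was 4.32 times the highest tumour without the mutation. The groups did not overlap, as in 222 of the 223 listed genes, a separation that follows from how the table was selected. Mean levels were 124 ± 1.36 normalized counts with H3.3K27M and 26.3 ± 3.57 without it (SD, n = 3 each). The difference of the mean log2 values was 2.25 ± 0.12 (SE). This SE rests on spreads over tumours that were smaller than the counting error given below, so it understates the uncertainty. The authors' deposited table gives Cecr2 a 4.72-fold rise with an adjusted p of 3.88e-04, the values that chose it. Of 16365 gene tests behind the table, 1.36% passed an adjusted p of 0.05 in either direction and 1.11% passed as higher. Cecr2 and Baz2b are among the higher ones by the way they were chosen, so nothing is read from these shares.

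The values of Cecr2 in H3.3K27M tumours lay closer together than counting error alone would place them. If 1 step of each column is 1 read, they rest on 132, 121 and 127 reads, and those of the tumours without the mutation on 22, 29 and 26 reads. Counting alone would then give an SD of 11 normalized counts in H3.3K27M tumours, where the SD over tumours was 1.36. In tumours without H3.3K27M it would give 5.19, where the SD was 3.57. Differences of Cecr2 between tumours of the same group were therefore not detectable at this depth. With reads pooled over each group and divided by the summed size factors, the ratio was 4.72 with an exact 95% binomial interval of 3.69 to 6.12, which covers counting error only. Among 220 listed genes with a coefficient of variation in H3.3K27M tumours, where the median was 22.2%, that of Cecr2 (1.09%) was the 2nd lowest. In tumours without H3.3K27M its coefficient of variation was 13.6%, the 67th lowest of 222, against a median of 20.8%.

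Baz2b, the second bromodomain gene, had 945, 995 and 1122 normalized counts in the H3.3K27M tumours (replicates 1, 2 and 3), against 644, 557 and 679 in replicates 1, 2 and 3 without H3.3K27M. The groups did not overlap, as in nearly all of the selected table, and the lowest H3.3K27M tumour was at 1.39 times the highest tumour without the mutation. Mean levels were 1020.3 ± 91.4 normalized counts with H3.3K27M and 627 ± 62.9 without it (SD, n = 3 each). The difference of the mean log2 values was 0.70 ± 0.11 (SE). In the authors' deposited table Baz2b rose 1.63-fold with an adjusted p of 0.0148, again the values that chose it. The direction for Baz2b holds under the authors' size factors and turns to a log2 ratio of -0.48 when each tumour is rescaled so that the middle listed gene is level across tumours. That scaling lowers the H3.3K27M tumours by 1.19 on the log2 scale relative to the others, since 81.6% of the listed genes are higher in them, and it leaves Cecr2 at a log2 ratio of 1.05. The smaller rise of Baz2b is thus below that of the middle listed gene, and that of Cecr2 above it.

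**Figure D1:**
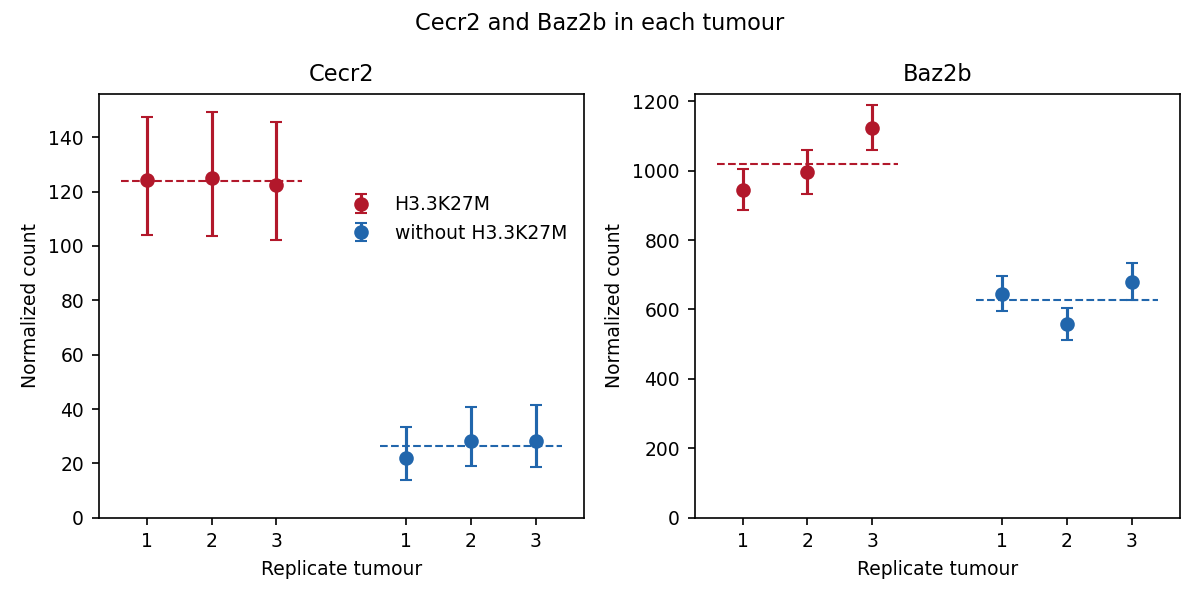
Normalized counts (linear axis from 0) of Cecr2 (left) and Baz2b (right) in each replicate tumour, H3.3K27M in red and without H3.3K27M in blue. Bars are exact 95% Poisson intervals of the implied reads, and dashed lines are group means: 124 against 26.3 for Cecr2 and 1020.3 against 627 for Baz2b. With tumours scaled to the middle listed gene, the difference in Baz2b takes the opposite sign (log2 ratio -0.48). This follows by construction, because most listed genes are higher in H3.3K27M tumours and Baz2b rose less than the middle listed gene.

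The spread of Baz2b between tumours of the same group exceeded what counting alone would give. Its implied reads were 1002, 963 and 1164 with H3.3K27M and 640, 571 and 623 without it. Counting alone would give an SD of 31.6 normalized counts in H3.3K27M tumours, against 91.4 over tumours. In tumours without H3.3K27M it would give 25.4, against 62.9. The ratio from pooled reads was 1.63 with an exact 95% binomial interval of 1.54 to 1.73, which leaves out that spread between tumours. The coefficients of variation were 8.96% with H3.3K27M and 10% without it, the 32nd and 43rd lowest among the listed genes.

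Within the groups, Cecr2 and Baz2b did not order the tumours alike, although both were highest in replicate 3 of those without H3.3K27M. Baz2b was 9.95% above its group mean in H3.3K27M replicate 3, the tumour in which Cecr2 was lowest in its group, with a deviation of -1.24%. In replicate 1 without H3.3K27M, Cecr2 deviated by -15.7% from its group mean and Baz2b by 2.73%. In replicate 2 of that group Cecr2 deviated by 7.75% and Baz2b by -11.1%, while in replicate 3 both lay above their means, by 7.96% and 8.38%. All deviations of Cecr2 lie within its counting error, so these few tumours cannot show whether the genes vary together or apart within a group.

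The RefSeq promoter table matched 1 of the genes, Baz2b. No Cecr2 window could be set beside it, so nothing shared by the 2 promoters can be read. The 250 bases before the RefSeq start of Baz2b lie at chr2:60125741-60125990 on the minus strand of GRCm38.p6. They are shown as the window of the first listed start of Baz2b, the only start looked at, with the letters of a cAMP response element in capitals:
Baz2b promoter: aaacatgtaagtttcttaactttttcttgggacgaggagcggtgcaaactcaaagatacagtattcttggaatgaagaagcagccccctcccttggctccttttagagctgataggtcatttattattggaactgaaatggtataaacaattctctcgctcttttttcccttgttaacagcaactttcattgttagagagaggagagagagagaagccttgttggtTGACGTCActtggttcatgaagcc
The motif searched, TGACGTCA, reads the same on both strands, was picked after the sequence had been read, and lies 24 to 17 bases before the start. It occurs in 1.62% of the 27025 promoter windows of the same length, counting the first listed start of each gene. Among windows of listed genes that were higher in H3.3K27M tumours, 3 of 125 hold it. Baz2b, in whose window it was picked, is 1 of these 3, so nothing is read from that count. A match of letters is not a binding site. The window has a GC content of 41.2%, against a median of 52% over all windows, and holds 4 CpG dinucleotides. As many or fewer were found in 44.5% of all windows, whose median was 6, while the median over the 125 windows of higher listed genes was 13.

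Cecr2 was the scarcer gene in both groups when levels were set per length. Per kilobase of annotated exons (17082 bases for Cecr2 and 17604 for Baz2b), Cecr2 had 7.26 ± 0.0794 normalized counts with H3.3K27M and 1.54 ± 0.209 without it (SD, n = 3 each). On the same scale per kb, Baz2b had 58 ± 5.19 with H3.3K27M and 35.6 ± 3.57 without it. The level of Cecr2 per kb was thus 13.6%, 12.9% and 11.2% of that of Baz2b in the H3.3K27M tumours (replicates 1, 2 and 3), and 3.54%, 5.23% and 4.30% in replicates 1, 2 and 3 without the mutation. With the longest transcript of each gene as its length, the mean shares were 10.5% with H3.3K27M and 3.63% without it. Over all 6 tumours, Baz2b per kb was near the middle of the listed genes, 115th of 220 that have a gene model, and Cecr2 was 211th.

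**Figure D2:**
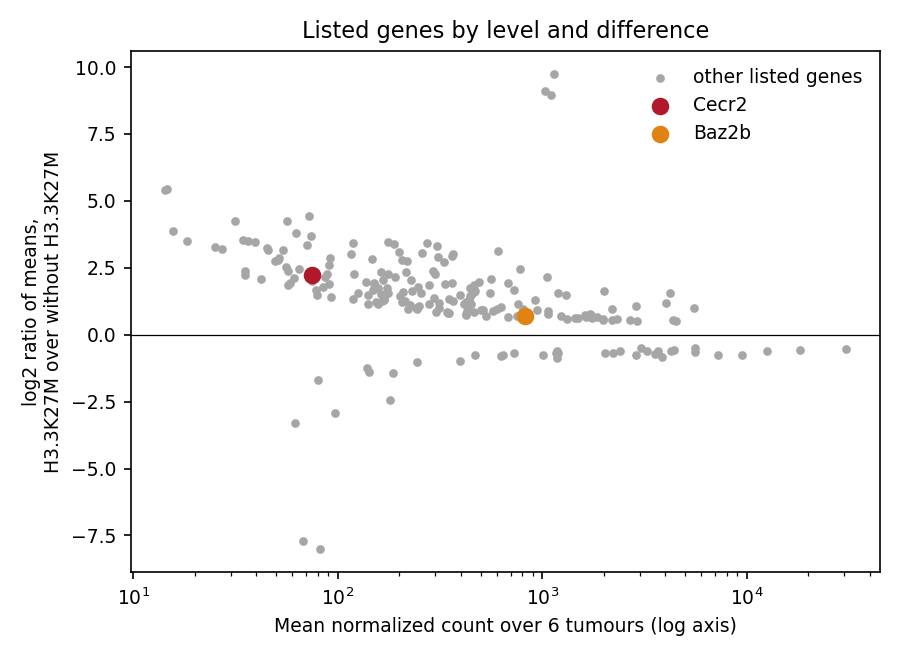
Each point is a listed gene with a finite ratio, with the mean normalized count over 6 tumours on a log x axis and the log2 ratio of means, H3.3K27M over without H3.3K27M, on the y axis. Cecr2 (red) lies at a log2 ratio of 2.24 and a mean of 75.1, and Baz2b (orange) at 0.70 and a mean of 824. Scaling to the middle listed gene would place Baz2b at -0.48 by construction, because most listed genes are higher in H3.3K27M tumours.

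Against the other listed genes that were higher in H3.3K27M tumours, Cecr2 stood above and Baz2b below the middle by size of change. The median ratio of means over 181 such genes with a finite ratio was 2.98, with Cecr2 at 4.72 and Baz2b at 1.63. By adjusted p in the authors' deposited table Cecr2 ranked 37th and Baz2b 122nd of 223. By mean level, not corrected for length, Cecr2 ranked 187th and Baz2b 61st.

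No other gene of the remodelling machinery that was looked for is in the table. Of 14 genes of the ISWI complexes, 2 are listed, both as higher, and they are Cecr2 and Baz2b themselves. The ATPases Smarca1 and Smarca5, the NURF subunit Bptf, the other BAZ genes Baz1a, Baz1b and Baz2a and the histone chaperones Rbbp4 and Rbbp7 are among the 12 that are not. Of 40 bromodomain genes the same 2 are listed. No gene is listed of 28 SWI/SNF, 18 CHD and NuRD, 16 INO80 and SRCAP family and 27 Polycomb genes. Over all 6 lists, 0 of the 130 genes other than Cecr2 and Baz2b are listed as higher or lower, beside 1.36% of all gene tests. A gene that is not listed either had an adjusted p of 0.05 or more or was not tested, and its level is not known here.

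Some markers of neurons, glia and stromal cells are listed too. Each is listed because it differed between these same groups, so the separation of their sums, here and below, follows from that selection. For comparison, 1.36% of all gene tests are listed in either direction, and 81.6% of the listed genes are higher. Of 50 neuron markers 13 are listed, all higher, and their summed level was 19558, 10491 and 21063 normalized counts in the H3.3K27M tumours (replicates 1, 2 and 3), against 6709, 5056 and 3569 in replicates 1, 2 and 3 without the mutation. None of the 13 was at 0 in any tumour. The neuron sum therefore differed 2.01-fold between the highest and the lowest H3.3K27M tumour. Cecr2 differed 1.02-fold, less than counting error alone would give, and Baz2b 1.19-fold. Whether these spreads bear on cell makeup was not tested. In H3.3K27M replicate 2, which held the least of the neuron markers in its group, Cecr2 was at 125 and Baz2b at 995. As a percentage of the neuron sum, Cecr2 stood at 0.636%, 1.19% and 0.581% in replicates 1, 2 and 3 with H3.3K27M and at 0.33%, 0.56% and 0.795% in those without. Baz2b stood at 4.83%, 9.48% and 5.33% of the neuron sum with H3.3K27M and at 9.60%, 11.0% and 19.0% without. These shares are set by the choice of denominator: the 13 markers are listed because they were higher in H3.3K27M tumours (their sum 3.33-fold), so dividing by them lowers any gene there, and the levels of the other markers on the list are not known here. No direction is read from them.

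Of 18 astrocyte markers 4 are listed as higher, and they summed to between 2169 and 3797 normalized counts under H3.3K27M and between 960 and 1141 without it. Of 12 mural and fibroblast markers 3 are listed as higher, with sums of 1116 to 1764 against 280 to 556. The myelin marker Ermn, the only listed one of 15, was at 80.6 to 217 against 18.5 to 31.2. Of 15 genes looked for as markers of oligodendrocyte precursors 3 are listed, all lower, with sums of 15558 to 20170 against 24700 to 29655. They are Bcas1 (mean 9925 with H3.3K27M against 15092 without), Kcnip3 (7122 against 11906) and Dll3 (563 against 901). Bcas1 and Kcnip3 thus carry most of the sum, and the levels of the markers not listed are not known here. No microglia, endothelial or cell cycle marker of the 15, 11 and 13 looked for is listed, beside 1.36% of all gene tests. At that share, lists this short can hold none, so nothing is read from their absence. The glioma lineage markers Olig2 and Pdgfra are not listed either, so the tumour label could not be checked at them. In bulk tumour RNA, more cells of a type and more RNA per cell cannot be told apart, and which cells held the Cecr2 and Baz2b transcripts, and the part of cell makeup in their rise, was not tested.

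**Figure D3:**
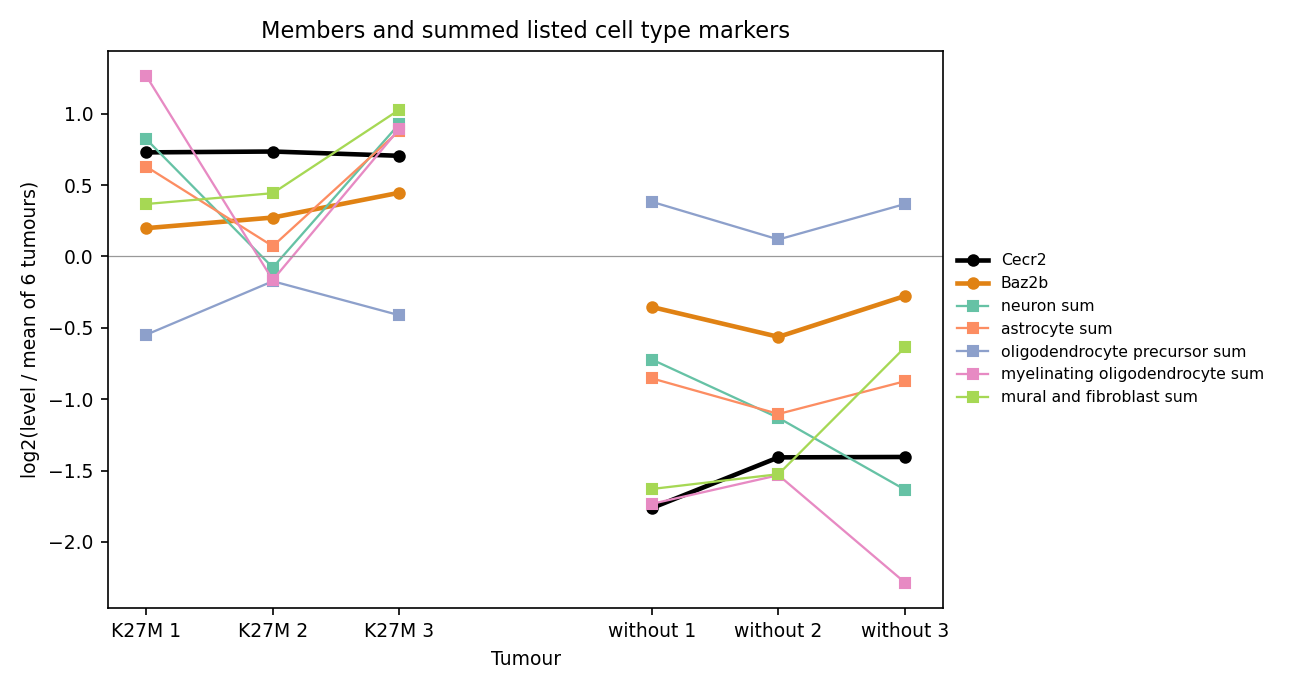
log2 of the level over the mean of the 6 tumours for Cecr2, Baz2b and the summed listed markers of each cell type; lines only link points of 1 item within a group, and replicates have no order. Cecr2 had 124, 125 and 122 normalized counts in the H3.3K27M tumours, values closer together than counting error alone would place them. In that group the neuron sum was lowest in replicate 2 (10491, against 19558 and 21063), as were the astrocyte and myelinating oligodendrocyte sums. The mural and fibroblast sum and the oligodendrocyte precursor sum were lowest in replicate 1. Every marker summed was listed for differing between these groups, so the separation of the sums follows from that selection. The part of cell makeup was not tested.

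The listed genes most like Cecr2 over the tumours were other genes with several-fold higher levels in H3.3K27M tumours. Likeness was measured as the root mean square difference of log2(normalized count + 1), centred on each gene's mean, over the 6 tumours, with smaller values for more alike profiles. The nearest was H19, an imprinted noncoding RNA, at a difference of 0.22, with 491 ± 115 normalized counts under H3.3K27M and 94.9 ± 9.35 without it (SD, n = 3 each). Next came Fam84a (0.23) and Asb4 (0.27), which encodes a SOCS-box protein of ubiquitin ligases. The teneurin gene Odz2 (0.27) and the aminopeptidase gene Lnpep (0.29) followed. The median difference of listed genes from Cecr2 was 0.71. The ranking leans on single tumours: 2 of these 5 genes were kept without H3.3K27M replicate 2, and 3 were kept without H3.3K27M replicate 3 or without replicate 3 of the other group.

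The genes most like Baz2b had small differences between the groups and little spread. They were Gpam, a mitochondrial acyltransferase of glycerolipid synthesis, at 2004 ± 130 normalized counts under H3.3K27M and 1253 ± 69.6 without it (SD, n = 3 each), and the integrin subunit gene Itgb8. The neuronal intermediate filament gene Ina, the ubiquitin ligase gene Trim2 and the Rab11 effector gene Rab11fip4 followed, all 5 with differences of 0.08 to 0.10. The median listed gene stood at 0.68 from Baz2b. Of these 5 genes, 3 were kept without H3.3K27M replicate 1 or 2, and 2 were kept without replicate 1 or 2 of the other group. Baz2b itself was the 127th nearest gene to Cecr2, and Cecr2 the 138th nearest to Baz2b, at a difference of 0.77. All listed genes were selected on the same tumours, so likeness here describes the table and says nothing of shared function or control. When only deviations from the group means were compared, 0 of the 5 genes nearest to Cecr2 and 1 of the 5 nearest to Baz2b were still among the nearest 5.

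**Figure D4:**
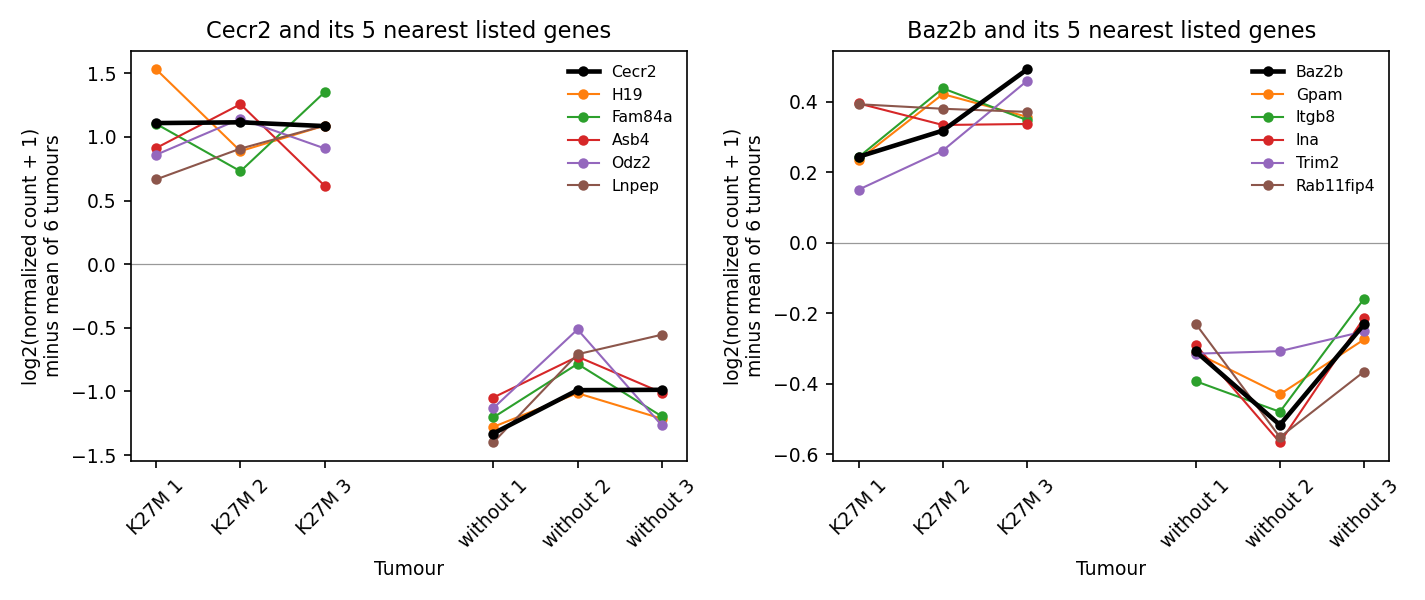
Centred log2(normalized count + 1) in each tumour for Cecr2 (left) and Baz2b (right), in black, and their 5 nearest listed genes; the y axes differ, and lines only link points of 1 gene within a group. The genes nearest to Cecr2 lie 0.22 to 0.29 from it, and those nearest to Baz2b 0.08 to 0.10 from it, as root mean square differences in log2 units.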

How the data were processed

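The members and gene lists were chosen with earlier results of these data known. RNA from 6 tumours was sequenced by a service provider. The submitters' processing notes name DESeq and the builds mm9 and NCBIM37. No aligner, read counter or use of strand is given in the sources used here. The authors deposited, for each listed gene, a signal (normalized counts per tumour and their means), the ratio (fold) of the group means, its log2 value, and a p-value with its adjusted value. The Benjamini-Hochberg formula returned all deposited adjusted p-values with 16365 tests.

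Each column was paired with the tumour whose title starts with the same number, and 0 columns were left over. Each column held whole multiples of a step, within 0.01 for 100% of values, with implied size factors between 0.917 and 1.06. Over the listed genes the implied reads came to 215758 to 277881 per tumour; total depth is unknown. Too few low values are listed to settle that 1 step is 1 read, so no count test was run, and counting intervals rest on that reading and cover counting error only.

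Means, SDs, ratios and profile differences were computed in Python 3.11.15 with pandas 2.3.3, NumPy 2.4.6 and SciPy 1.17.1. The functions for the number of tests and the step of a column were tested on simulated data. That for the nearest profiles was tested on simulated rows placed among the deposited values. No test of the groups was made, since the members were selected on it. Other genes named are the 5 nearest profiles of each member (pseudocount 1) and listed members of the lists. Gene models come from GENCODE M21 and promoters from RefSeq, both of GRCm38, a later build than the authors', so coordinates are given for the printed promoter window alone, in GRCm38.p6. Alternatives covered averaging, pseudocounts of 0.5, 1 and 5, scaling, a minimum mean of 50 and leaving out each tumour.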

Additional observations from a re-analysis of the deposited data

How the results depend on the processing

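The log2 ratio of group means was 2.24 for Cecr2 and 0.70 for Baz2b. With 1 tumour left out it lay between 2.13 and 2.30 for Cecr2 and between 0.62 and 0.76 for Baz2b. Mean log2 values with pseudocounts of 0.5 or 1, medians, or values without size factors moved neither by more than the spread between tumours. A pseudocount of 5 gave 2.05 for Cecr2, since it shrinks the differences of low genes. Scaling each tumour to the middle listed gene gave 1.05 for Cecr2 and -0.48 for Baz2b, by its construction, because most listed genes are higher in H3.3K27M tumours. Of the 5 genes nearest to each member, leaving out 1 tumour kept 2 to 5 for Cecr2 and 2 to 4 for Baz2b, a pseudocount of 5 or a minimum mean of 50 kept 5 for both, and deviations from the group means kept 0 for Cecr2 and 1 for Baz2b; the cause was not tested. No paired analysis was possible because the replicate numbers were given in sample order and pair no tumours. For Cecr2, depth limits the precision through 22 to 29 implied reads per tumour without H3.3K27M.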
